A study of Rattus norvegicus with 9 samples.

Results

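The genes described here are 10 regulators of mitochondrial biogenesis and mitochondrial uncoupling proteins: Ppargc1a, Nrf1, Gabpa, Tfam, Esrra, Ucp2, Slc25a14, Slc25a27, Sirt1 and Sirt3. They were chosen by name, with earlier results of these data known, and every probe set annotated to 1 of these symbols was taken. Of the 10 genes, 9 had a probe set, with 15 probe sets in all among the 31099 of the deposited table, whose probe sets of a single gene name 14217 genes. No probe set used here carried the symbol Sirt1, which is therefore not analysed here. After a filter on low signal, 11 of the 15 probe sets were tested, at least 1 for each of the 9 genes, among 18625 tested in the whole series.

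RNA came from rat hippocampus and was described in the labels as neuronal. There were 3 groups of 3 arrays each: control in artificial cerebrospinal fluid alone, ketone bodies for 1 h and ketone bodies for 6 h. Ketone bodies are small fuels that the liver makes from fat during fasting. How long the control was exposed, the concentration, the strain and the age are not in the labels. The labels also do not say that arrays of a group came from separate animals or cultures, so each p measures only the spread between these 9 arrays. Because whole tissue or mixed cells may lie behind each array, fewer cells of a type and less RNA per cell cannot be told apart.

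Cells adjust their mitochondrial content through a chain of nuclear regulators. The coactivator PGC-1 alpha, encoded by Ppargc1a, is deacetylated by the sirtuin SIRT1 and works through the transcription factors NRF1, GABP (whose DNA-binding subunit is encoded by Gabpa) and the orphan receptor ERR alpha (encoded by Esrra). These act on nuclear genes of the respiratory chain and on Tfam, whose product enters mitochondria, packages their DNA and starts its transcription. Uncoupling proteins sit in the inner membrane as members of the mitochondrial carrier family. Ucp2 is widely expressed, while Slc25a14 and Slc25a27 encode carriers best known from brain. SIRT3 is the main deacetylase of the mitochondrial matrix.

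The promoters of 3 regulators are shown because Tfam and Esrra had the smallest p at 1 h and Ppargc1a stands at the head of the chain. Each is the RefSeq sequence of the rat GRCr8 assembly from 250 bases before to 50 bases after the gene's start, read on the strand of the gene. All 10 members matched a promoter entry. Capitals mark exact matches on either strand to CCGGAAGT (bound by ETS factors such as GABP), GCATGCGC (part of the NRF1 motif), TGACGTCA (the cyclic AMP response element bound by CREB) or TCAAGGTCA (bound by ERR receptors).
Tfam, chr20:17355123-17355422, + strand: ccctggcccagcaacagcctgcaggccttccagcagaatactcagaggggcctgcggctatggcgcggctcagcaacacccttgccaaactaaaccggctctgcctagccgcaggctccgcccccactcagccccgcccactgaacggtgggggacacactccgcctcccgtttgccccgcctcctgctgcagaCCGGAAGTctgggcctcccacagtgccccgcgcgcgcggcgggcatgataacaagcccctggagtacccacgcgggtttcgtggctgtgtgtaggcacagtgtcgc
Esrra, chr1:213543256-213543555, - strand: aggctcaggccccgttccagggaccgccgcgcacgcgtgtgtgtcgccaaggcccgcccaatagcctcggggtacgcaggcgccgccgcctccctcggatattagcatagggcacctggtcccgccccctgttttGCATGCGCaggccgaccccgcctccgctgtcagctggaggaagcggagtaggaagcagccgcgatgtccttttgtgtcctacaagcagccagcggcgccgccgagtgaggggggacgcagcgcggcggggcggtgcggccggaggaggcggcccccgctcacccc
Ppargc1a, chr14:63634058-63634357, + strand: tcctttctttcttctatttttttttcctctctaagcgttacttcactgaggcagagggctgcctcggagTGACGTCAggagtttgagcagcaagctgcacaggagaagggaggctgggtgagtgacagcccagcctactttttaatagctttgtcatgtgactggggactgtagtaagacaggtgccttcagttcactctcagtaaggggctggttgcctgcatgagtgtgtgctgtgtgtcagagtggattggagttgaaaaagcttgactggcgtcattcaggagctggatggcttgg
The Tfam window held CCGGAAGT, with its first base 56 bases before the gene's start. The Esrra window held GCATGCGC at 115 bases before the start, and the Ppargc1a window held TGACGTCA at 181 bases before it. Among 33469 promoter windows of the same length, 3.81% held CCGGAAGT, 2.47% held GCATGCGC, 1.83% held TGACGTCA and 0.433% held TCAAGGTCA. Each of these 3 windows held 1 match, so no overlap between motifs could arise. No other match was found in the windows of the 10 members, which says only that these letters are not in them.

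Arrays were about as strongly correlated between groups as within them. Correlations between arrays ran from 0.949 to 0.987 within groups and from 0.945 to 0.988 between groups. All 8 neuron markers, all 6 inhibitory neuron markers, all 6 astrocyte markers, all 9 microglia and macrophage markers and the 5 measured oligodendrocyte markers passed the filter, so the RNA labelled as neuronal also carried glial transcripts. On the first principal component, with 45.0% of the variance, 1 h array 3 (-35.5) and 6 h array 1 (-39.4) stood lowest. Marker sums were taken from quantile-normalized values brought back to the linear scale, not from the deposited signals. The sum of 5 excitatory neuron markers was 4738 to 5222 at 1 h and 4420 to 5485 at 6 h, against 5606 to 6430 in control. The 5 log2 changes were negative at both times. Inhibitory neuron markers summed to 5779 to 6212 at 1 h and 5776 to 5837 at 6 h, against 5207 to 5636 in control. Of these 6 markers, 4 had positive log2 changes at 1 h (lowest -1.30) and 5 at 6 h (lowest -0.50). Microglia and macrophage markers, of which 7 of 9 had positive log2 changes at both times, summed to 1328 to 1403 at 1 h and 1167 to 1291 at 6 h, against 1001 to 1217 in control. Sums of endothelium markers were higher at 1 h (663 to 713, against 588 to 646 in control), and those of oligodendrocyte precursors (359.7 to 408, against 430.2 to 503) and choroid plexus (3818 to 4198, against 4619 to 4778) were lower. The exact 2-sided permutation p was 0.1 for each of these 6 marker sums at 1 h, and for the excitatory and inhibitory sums at 6 h, the smallest that 3 against 3 arrays can give. These are 6 of 9 marker sums. The neuron, astrocyte and oligodendrocyte sums overlapped control at 1 h, with exact p of 0.2, 0.5 and 0.4 by the same test. Among all tested probe sets, 21.3% did not overlap between 1 h and control. The log2 ratio of 3' to 5' control signals is higher in more degraded RNA. For beta-actin it was 1.39 to 2.16 at 1 h and 1.03 to 2.58 at 6 h, against 1.27 to 1.42 in control. Both ketone ranges overlapped the control range (exact 2-sided p by permutation: 0.2 for 1 h, 0.4 for 6 h). The GAPDH ratio was 0.063 to 0.136 at 1 h, 0.036 to 0.459 at 6 h and 0.021 to 0.243 in control. Its ranges overlapped too, with an exact p of 0.8 for either time by the same test. The part of these marker and ratio differences in the member values was not tested.

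**Figure D1:**
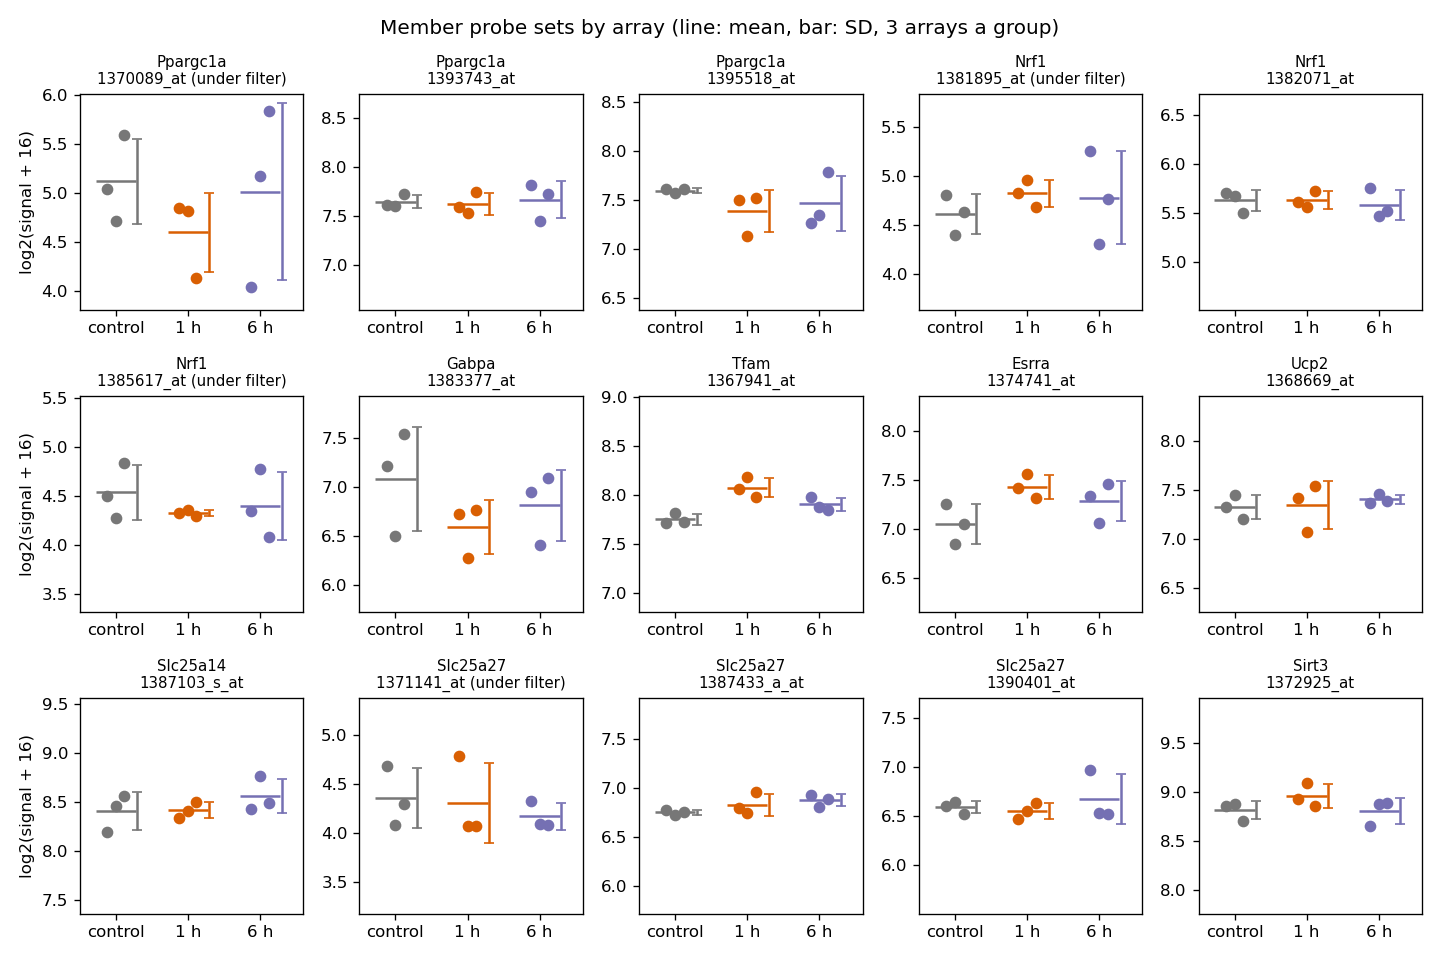
Quantile-normalized log2(signal + 16) of the 15 member probe sets on each of 9 arrays, in control, 1 h and 6 h, with 3 points, the mean (line) and the SD (bar) for each group and an axis of the same height in every panel. In the Tfam panel 1 h is highest, 6 h next and control lowest, with the lowest 1 h array almost level with the highest 6 h array; Gabpa and the Ppargc1a probe set under the filter spread widely within groups.

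The question at 1 h was whether a short exposure to ketone bodies goes with a change in these regulators and carriers. Tfam and Esrra had the highest values relative to control, with folds of 1.25 and 1.30, and Gabpa had the lowest, with a wide spread. The other members had log2 changes between -0.21 and 0.15. None of the 11 tested member probe sets passed an adjusted p of 0.05 (limma, Benjamini-Hochberg over all 18625 probe sets), beside 0.0322% of all tested probe sets. At an unadjusted p under 0.05 there were 2, Tfam and Esrra, of 11 member probe sets, beside 11.4% of all tested. In the normalized values, the scale of every such count, the groups did not overlap, with 1 h higher, in 2 of 11 (13% of all tested), and with 1 h lower in 1 of 11 (8.26% of all tested). A positive log2 change was seen in 7 of 11 (55.3% of all tested). The median log2 change was 0.0085 over the 11 member probe sets and 0.029 over all tested.

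At 6 h the log2 changes of the members lay between -0.27 and 0.23. None of the 11 passed an adjusted p of 0.05, beside 0.0268% of all tested, and 0 had an unadjusted p under 0.05, beside 4.25% of all tested. The groups did not overlap, with 6 h higher, in 2 of 11 (Tfam and a Slc25a27 probe set; 6.05% of all tested) and with 6 h lower in 0 of 11 (3.15% of all tested). A positive log2 change was seen in 7 of 11 (53.8% of all tested). The median log2 change of the members was 0.078, beside 0.015 over all tested. Both comparisons use the same 3 control arrays. In the direct comparison of 6 h with 1 h, 0 of 11 passed an adjusted p of 0.05 (0% of all tested) and 0 had an unadjusted p under 0.05 (2.72% of all tested). There the groups did not overlap in 1 of 11, Tfam, with 6 h lower (4.04% of all tested), and in 0 of 11 with 6 h higher (3.55% of all tested). Positive values made up 7 of 11 (47% of all tested).

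Tfam encodes the mitochondrial DNA packaging and transcription factor. Its deposited signal was 195, 212 and 196 on the control arrays, 248, 273 and 234 at 1 h, and 238, 216 and 215 at 6 h. Every 1 h array lay above every control array, and so did every 6 h array, though the lowest 6 h value was close to the highest control value. The 6 h and 1 h arrays overlapped in these signals, and in the normalized values the highest 6 h array lay just under the lowest 1 h array (7.98 on the log2 scale for each). Each log2 change is given with its SE from 3 arrays per group. At 1 h it was 0.32 ± 0.10 (95% interval 0.10 to 0.55), a fold of 1.25. Its p by limma was 0.00969 and its adjusted p 0.356, which ranked 503 of 18625 by p. At 6 h it was 0.15 ± 0.10 (interval -0.07 to 0.38, adjusted p = 0.987). The change of 6 h against 1 h was -0.17 ± 0.10 (interval -0.40 to 0.06, adjusted p = 0.996). The unadjusted p at 1 h ran from 0.00756 to 0.0430 over the 20 alternative settings and its adjusted p from 0.247 to 0.772, so Tfam did not pass the threshold in any of them. Without 1 h array 3 and 6 h array 1 the 1 h change was 0.37 (adjusted p = 0.395).

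Esrra encodes ERR alpha, a partner of PGC-1 alpha at genes of oxidative metabolism. Its signal was 141, 104 and 122 on the control arrays, 153, 171 and 139.9 at 1 h, and 144, 116 and 165 at 6 h. In the normalized values the 1 h arrays lay just above the control arrays without overlap, while in the deposited signals the lowest 1 h array was just under the highest control array. The 6 h arrays overlapped the control arrays on both scales. The log2 change at 1 h was 0.37 ± 0.15 (interval 0.04 to 0.71), a fold of 1.30, with an adjusted p of 0.407 by limma (unadjusted 0.0316). At 6 h it was 0.23 ± 0.15 (interval -0.10 to 0.57, adjusted p = 0.987), with 0.13 without control array 2, 0.14 without 6 h array 3 and 0.35 without 6 h array 2. The unadjusted p at 1 h was under 0.05 in 15 of 20 alternative settings and reached 0.124 without control array 2. Without 1 h array 3 and 6 h array 1, the arrays lowest on the first principal component, the 1 h change was 0.43 (adjusted p = 0.449). Against 1 h, the 6 h change was -0.14 ± 0.15 (adjusted p = 0.996).

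Ppargc1a, the coactivator itself, was read by 3 probe sets that did not give the same picture. The probe set with the highest mean, 1393743_at, had signals of 182, 181 and 198 in control, 176, 166 and 194 at 1 h, and 211, 157 and 199 at 6 h. Its groups overlapped fully, with log2 changes of -0.023 ± 0.12 at 1 h (interval -0.30 to 0.25, adjusted p = 0.953) and 0.023 ± 0.12 at 6 h (interval -0.25 to 0.30, adjusted p = 0.993). The probe set 1395518_at had 182, 178 and 181 in control, 163, 122 and 165 at 1 h, and 135, 145 and 207 at 6 h. All 3 of its 1 h arrays lay below the control arrays, and the control arrays lay close together. The log2 change was -0.21 ± 0.16 at 1 h (interval -0.57 to 0.15, adjusted p = 0.607) and -0.13 ± 0.16 at 6 h (adjusted p = 0.987). The 1 h value was -0.085 without 1 h array 2 and -0.041 with the 3'/5' ratio as a covariate. The 6 h value was -0.025 without 6 h array 1, -0.071 without 6 h array 2 and -0.29 without 6 h array 3. The remaining probe set, 1370089_at, was under the filter, with signals of 16.4, 11.4 and 34.7 in control, 11.9, 11.2 and 1.61 at 1 h, and 0.332, 20.7 and 43.7 at 6 h. Its signals spread over the whole range within the 6 h group, and the probe set was not tested.

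Nrf1 encodes nuclear respiratory factor 1, an activator of respiratory chain genes. Of its 3 probe sets only 1382071_at passed the filter, and it too was dim, with 36.5, 37.4 and 31.6 in control, 32.2, 29.2 and 34.9 at 1 h, and 33.7, 28.8 and 31.9 at 6 h. The groups overlapped, with log2 changes of 0.0051 ± 0.14 at 1 h (interval -0.30 to 0.31, adjusted p = 0.991) and -0.045 ± 0.14 at 6 h (interval -0.35 to 0.26, adjusted p = 0.991). The other probe sets lay under the filter on average: 1381895_at had signals between 4.40 and 18.6 over the 9 arrays and 1385617_at between 1.02 and 13.7. Neither was tested.

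Gabpa, the DNA-binding subunit of GABP, had the largest negative value among the tested members and the widest spread. Its signal was 135, 77.9 and 173 in control, 89.2, 59.1 and 89.5 at 1 h, and 104.0, 68.0 and 124 at 6 h. A single low control array lay inside the range of both ketone groups, so the groups overlapped. The log2 change was -0.49 ± 0.27 at 1 h (interval -1.10 to 0.12, adjusted p = 0.502) and -0.27 ± 0.27 at 6 h (interval -0.88 to 0.34, adjusted p = 0.987). Leaving out control array 2 gave -0.79 at 1 h (adjusted p = 0.507) and leaving out control array 3 gave -0.27 (adjusted p = 0.865). At 6 h the value was -0.56 without control array 2 (unadjusted p = 0.0446, adjusted p = 0.999 by limma), -0.041 without control array 3, -0.064 without 6 h array 2 and -0.41 without 6 h array 3. Against 1 h, the 6 h change was 0.22 ± 0.27 (adjusted p = 0.996).

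**Figure D2:**
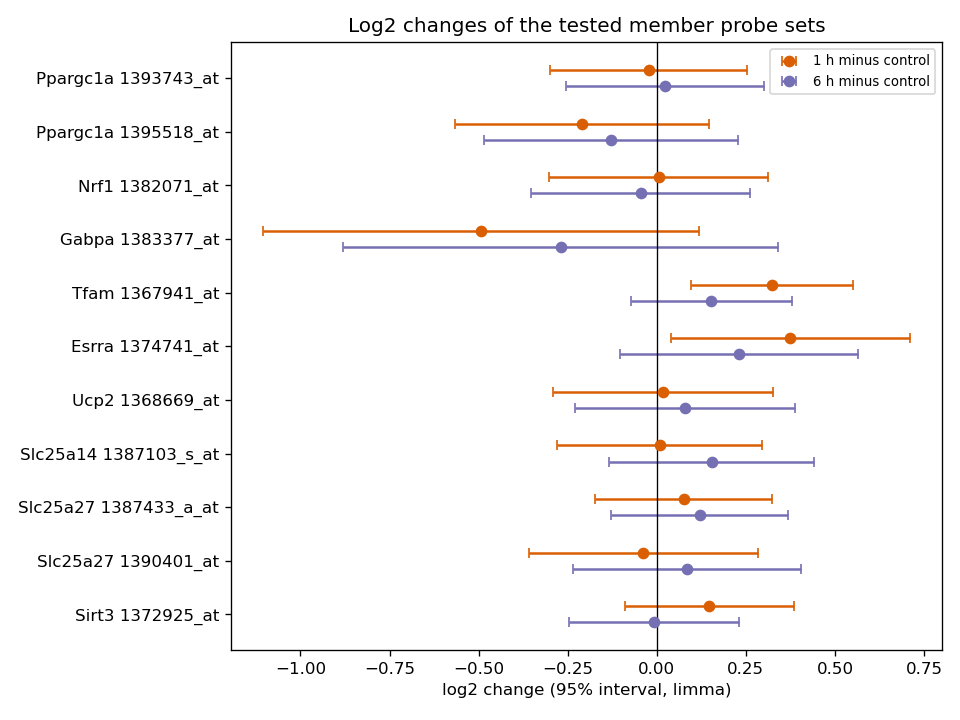
Log2 changes (points) with 95% intervals (bars) from limma for the 11 tested member probe sets, 1 h minus control and 6 h minus control, 3 arrays per group. The 1 h intervals of Tfam (0.10 to 0.55) and Esrra (0.04 to 0.71) lie above 0, without adjustment for the number of probe sets, and the other intervals include 0.

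No probe set of an uncoupling protein passed the test at either time, and their log2 changes lay between -0.037 and 0.15. Ucp2, the widely expressed uncoupling protein, had signals of 148, 163 and 135 in control, 153, 115 and 167 at 1 h, and 147, 158 and 155 at 6 h. The groups overlapped, and the log2 change was 0.018 ± 0.14 at 1 h (interval -0.29 to 0.33, adjusted p = 0.964) and 0.078 ± 0.14 at 6 h (interval -0.23 to 0.39, adjusted p = 0.989). Ucp2 is known from microglia and macrophages among other cells; the summed markers of those cells were higher on each 1 h array than on any control array, and their part in the Ucp2 value was not tested.

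Slc25a14, a brain mitochondrial carrier also called UCP5, had 278, 337 and 361 in control, 305, 323 and 344 at 1 h, and 333, 411 and 341 at 6 h. One 6 h array was the highest of the 9, and the groups overlapped. The log2 change was 0.0085 ± 0.13 at 1 h (interval -0.28 to 0.30, adjusted p = 0.983) and 0.15 ± 0.13 at 6 h (interval -0.13 to 0.44, adjusted p = 0.987). The 6 h value was 0.048 without control array 1, 0.054 without 6 h array 2 and 0.23 without control array 3.

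Slc25a27, also called UCP4 and known from neurons, was read by 3 probe sets. The brightest, 1387433_a_at, had 96.0, 94.0 and 96.1 in control, 94.1, 88.8 and 104.1 at 1 h, and 101.5, 94.4 and 105.9 at 6 h. In the normalized values every 6 h array lay above every control array, while the deposited signals of these groups overlapped. The log2 change was 0.076 ± 0.11 at 1 h (interval -0.17 to 0.32, adjusted p = 0.802) and 0.12 ± 0.11 at 6 h (interval -0.13 to 0.37, adjusted p = 0.987). The 1 h value was 0.012 without 1 h array 3 and 0.12 without 1 h array 2. The probe set 1390401_at had 83.2, 88.0 and 80.2 in control, 72.4, 75.5 and 79.4 at 1 h, and 105.6, 76.0 and 79.7 at 6 h. Its 6 h mean rested on 1 array, and its log2 changes were -0.037 ± 0.14 at 1 h (adjusted p = 0.930) and 0.085 ± 0.14 at 6 h (adjusted p = 0.989). In the deposited signals every 1 h array of this probe set lay below every control array, while the normalized values overlapped. With values as deposited the 1 h change was -0.12 (adjusted p = 0.726 by limma). The last probe set, 1371141_at, ran from 0.763 to 10.7 over the 9 arrays and lay under the filter.

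Sirt3, the mitochondrial deacetylase, had signals of 448, 451 and 401 in control, 472, 533 and 451 at 1 h, and 397, 448 and 451 at 6 h. The 1 h arrays were the higher ones, but the lowest of them was level with the highest control array. The log2 change was 0.15 ± 0.11 at 1 h (interval -0.09 to 0.38, adjusted p = 0.592) and -0.0078 ± 0.11 at 6 h (interval -0.25 to 0.23, adjusted p = 0.997). The 1 h value was 0.081 without 1 h array 2 and 0.095 without control array 3. It was 0.20 without 1 h array 3 and 0.26 with array medians centred (unadjusted p = 0.042, adjusted p = 0.338 by limma). Against 1 h, the 6 h change was -0.15 ± 0.11 (adjusted p = 0.996).

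As a description of likeness, the 3 single-gene probe sets whose values most resembled those of a member over the 9 arrays were named for Ppargc1a (1393743_at) and for Tfam, the member with the smallest p of the moderated F test. For Ppargc1a these were Tlcd4 (Pearson r = 0.954), Cep120 (0.940) and the RNA helicase gene Ddx3x (0.930). For Tfam they were Tmem199 (r = 0.959), the vesicle fusion gene Vamp8 (0.955) and Smagp (0.954). These are the highest values among all tested probe sets of a single gene over 9 points from the same 3 groups, and they carry no p.

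The rest of the pathway was read from 10 lists of 169 genes in all, of which 157 had a probe set and 149 were tested with 1 probe set each. At 1 h, 0 passed an adjusted p of 0.05 (lowest adjusted p = 0.320 by limma) and 26 had an unadjusted p under 0.05, 23 of them above 0 and 3 below. That is 17.4% of the 149, beside 11.4% of all tested (6.68% positive and 4.67% negative). The lists were chosen with earlier results of these data known, so these shares are a description only. Of the 149, 100 had a positive log2 change at 1 h, with a median of 0.11, beside 0.029 over all tested. The share of all tested probe sets with a positive change depended on the scaling. At 1 h it was 55.3% with quantile normalization, 65.6% with array medians centred and 48.7% with values as deposited. At 6 h it was 53.8%, 65.2% and 48.3% in the same order. At 6 h, 0 passed (lowest adjusted p = 0.987), and 7 had an unadjusted p under 0.05, which is 4.70% beside 4.25% of all tested. The median at 6 h was 0.029 over the 149.

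**Figure D3:**
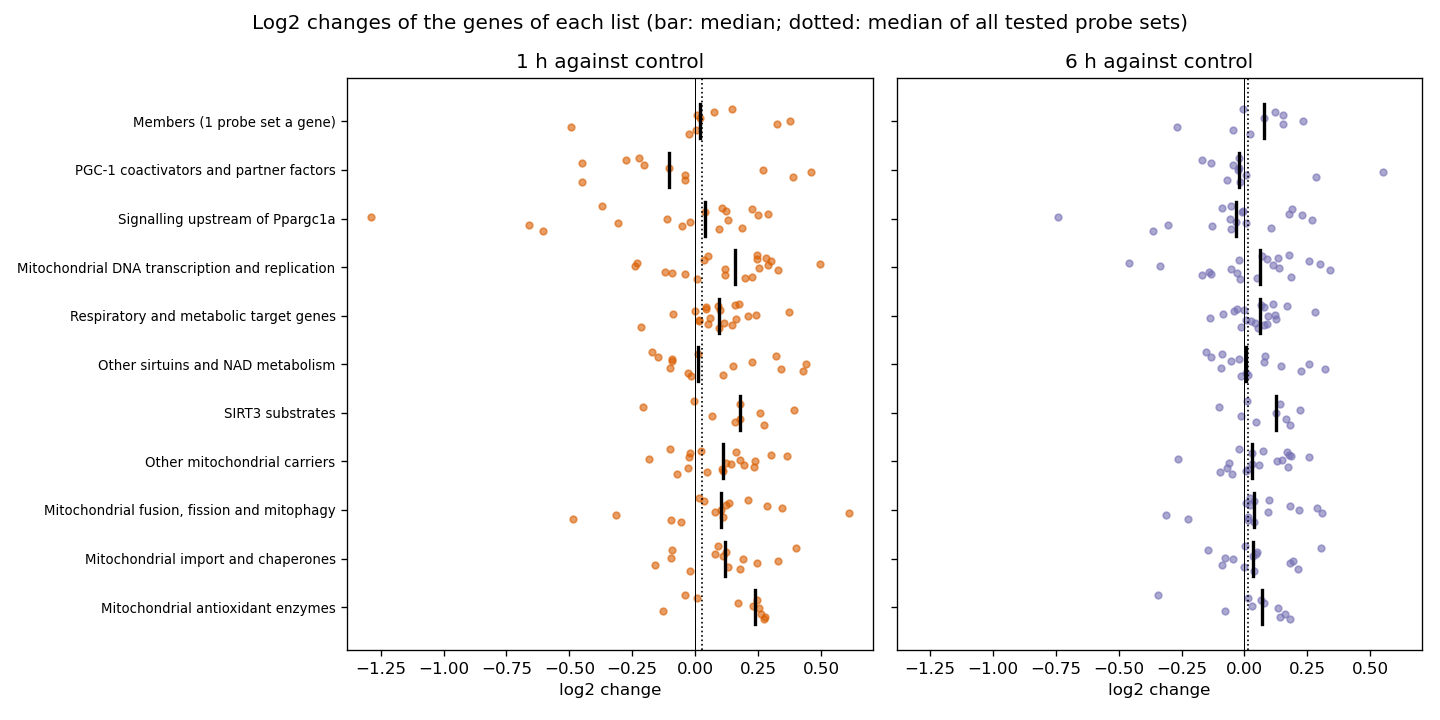
Log2 changes of single genes (points, 1 probe set a gene) at 1 h against control (left) and 6 h against control (right), for the 9 measured members and the 10 lists of other mitochondrial genes, with the median of each list (bar) and of all tested probe sets (dotted line). At 1 h the medians of 7 lists lie between 0.094 and 0.24, above the dotted line at 0.029, and that of PGC-1 coactivators and partner factors lies below 0 at -0.11.

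Among 11 tested PGC-1 coactivators and partner factors, 0 passed at either time, 3 log2 changes were positive and 8 negative at 1 h (median -0.11), and the same counts held at 6 h (median -0.024). Positive values made up 55.3% of all tested probe sets at 1 h and 53.8% at 6 h. Ppard, the fatty acid receptor PPAR delta, had 0.46 ± 0.18 at 1 h and 0.55 ± 0.18 at 6 h (adjusted p = 0.395 and 0.987), with -0.050 and -0.22 in a second probe set under the filter. Esrrb, a relative of Esrra, had 0.39 ± 0.14 at 1 h and 0.28 ± 0.14 at 6 h (adjusted p = 0.391 and 0.987). Perm1, Ppara, Pparg and Rxra lay under the filter.

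Signalling genes upstream of Ppargc1a were split, with 9 of 17 positive at 1 h (median 0.039) and 6 of 17 at 6 h (median -0.034), and 0 passed. Beside these, 55.3% and 53.8% of all tested were positive. Creb1 encodes CREB, a factor that binds cyclic AMP response elements, the motif marked in the Ppargc1a window. Its brightest probe set had -0.60 ± 0.18 at 1 h (adjusted p = 0.335) and -0.36 ± 0.18 at 6 h (adjusted p = 0.987), while its other 3 probe sets, all under the filter, had -0.16 to 0.074 at 1 h. Prkaa2, the AMP-activated kinase subunit that acts on PGC-1 alpha, is named after its values were seen, since it had the lowest log2 change of the 149 at 1 h. Its signal was 54.8, 113.1 and 127 in control, 27.9, 71.3 and 4.32 at 1 h, and 2.23, 108 and 96.4 at 6 h, and the 2 arrays that stood lowest on the first principal component, 1 h array 3 and 6 h array 1, gave the lowest values. Its log2 change was -1.29 ± 0.71 at 1 h and -0.74 ± 0.71 at 6 h (adjusted p = 0.4996 and 0.987 by limma). Mef2a, a factor of the muscle and neuronal activity programme, had -0.31 ± 0.13 at 1 h and 0.0057 ± 0.13 at 6 h (adjusted p = 0.419 and 0.998) in its brightest probe set. Its 3 other probe sets had -1.08 ± 0.65, -0.88 ± 0.54 and -0.51 ± 0.18 at 1 h (adjusted p = 0.534, 0.540 and 0.381 by limma). Their 6 h changes were -0.45 to -0.32. In the first 2 of these, 1 h array 3 (22.3 and 66.7) and 6 h array 1 (26.7 and 75.0) gave the lowest signals.

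The lists that lie downstream of the members had mostly positive values at 1 h, and 0 genes passed in any of them. Over all tested probe sets, 55.3% were positive at 1 h and 53.8% at 6 h with quantile normalization. The 2 genes named from a list are those with its smallest p of the moderated F test. Of 20 genes of mitochondrial DNA transcription and replication, the setting in which TFAM works, 15 were positive at 1 h (median 0.16) and 11 at 6 h (median 0.060). The mitochondrial topoisomerase Top1mt had 0.50 ± 0.13 at 1 h and 0.30 ± 0.13 at 6 h (adjusted p = 0.320 and 0.987). Mterf4, a mitochondrial ribosome assembly factor, had 0.33 ± 0.11 and 0.34 ± 0.11 (adjusted p = 0.378 and 0.987). Of 20 respiratory and metabolic target genes, 17 were positive at 1 h (median 0.094) and 14 at 6 h (median 0.060). There the complex III subunit Uqcrfs1 had 0.37 ± 0.11 at 1 h and 0.28 ± 0.11 at 6 h (adjusted p = 0.334 and 0.987), and the complex II subunit Sdhb 0.21 ± 0.08 and 0.095 ± 0.08 (adjusted p = 0.398 and 0.987). The Uqcrfs1 signal of control array 3 was 1339, against 1788 and 1856 on the other control arrays.

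The lists nearest to the sirtuins also had 0 genes that passed. Of 15 other sirtuin and NAD genes, 8 were positive at each time (medians 0.012 and 0.0068), beside 55.3% and 53.8% of all tested. The nuclear sirtuin gene Sirt6 had 0.43 ± 0.14 at 1 h (adjusted p = 0.356) and 0.22 ± 0.14 at 6 h, and Qprt, an enzyme of NAD synthesis, 0.32 ± 0.12 (adjusted p = 0.397) and 0.080 ± 0.12. Of 9 SIRT3 substrates, 7 were positive at each time (medians 0.18 and 0.13). Their superoxide dismutase Sod2 had 0.27 ± 0.12 at 1 h (adjusted p = 0.440) and the complex I subunit Ndufa9 0.26 ± 0.10 (adjusted p = 0.393). A second, dimmer Ndufa9 probe set that passed the filter had 0.15 ± 0.15 at 1 h (adjusted p = 0.691 by limma) and -0.011 at 6 h. In both Ndufa9 probe sets the 1 h and control arrays overlapped.

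Carriers other than the uncoupling proteins described above had 13 of 19 positive values at each time (medians 0.11 and 0.029), with 0 that passed. Beside the counts of positive values in these lists, 55.3% of all tested probe sets were positive at 1 h and 53.8% at 6 h. The pyrimidine nucleotide carrier Slc25a33 had 0.30 ± 0.11 at 1 h (adjusted p = 0.386), and the oxoglutarate carrier Slc25a11 had 0.20 ± 0.08 (adjusted p = 0.407). Ucp1 and Ucp3, known from brown fat and muscle, lay under the filter. Among 15 fusion, fission and mitophagy genes, 11 were positive at 1 h (median 0.10) and 13 at 6 h (median 0.037). The fission adaptor Fis1 had 0.61 ± 0.17 at 1 h and 0.31 ± 0.17 at 6 h (adjusted p = 0.321 and 0.987), and Phb2, a prohibitin of the inner membrane, 0.21 ± 0.08 at 1 h (adjusted p = 0.393). Of 14 import and chaperone genes, 10 were positive at 1 h (median 0.12) and 9 at 6 h (median 0.035), among them Grpel1 with 0.40 ± 0.12 and 0.30 ± 0.12 (adjusted p = 0.335 and 0.987) and Timm10 with 0.33 ± 0.11 at 1 h (adjusted p = 0.378). Of 10 antioxidant enzymes, 8 were positive at each time (medians 0.24 and 0.071), with Gpx4 at 0.26 ± 0.10 and Txn2 at 0.25 ± 0.09 at 1 h (adjusted p = 0.391 each). Control array 3 had a low signal for Fis1 (493, against 836 and 721 on the other control arrays) and Grpel1 (353, against 455 and 434). It was also the lowest control array for Gpx4 (1706, against 2128 and 2114), Timm10 (580, against 698 and 695), Slc25a33, Slc25a11 and Phb2. For Txn2 it was the highest control array (471, against 438 and 424). Over all tested probe sets, 2114 had an unadjusted p under 0.05 by limma at 1 h. Without control array 1, 2 or 3 there were 1945, 1711 and 1184. The part of control array 3 in the 1 h values of these genes was not tested.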

How the data were processed

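Expression was read from 9 arrays, and groups and replicate numbers came from the labels. The deposited values are linear intensity per probe set. For the software and the filters, nothing is given in the sources used here. The trimmed mean of each column (2% off each end) was 150.05, as a common scaling of the arrays would leave it. The values carry no counts, and the number of arrays limits the precision.

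Values were taken as log2(signal + 16) and quantile-normalized, since array medians spanned 0.206. After 57 control probe sets were removed, a filter at the 40th percentile of the mean over arrays (log2 5.21, near a signal of 21.0) set aside the dimmest, which left 18625. Limma 3.58.1 in R 4.3.3 fitted a mean per group (6 residual degrees of freedom) with a variance trend on intensity, and p was adjusted over all tested by Benjamini-Hochberg at a threshold of 0.05. Single array measures were compared by exact 2-sided permutation tests. A fold change is on the log2(signal + 16) scale and understates changes of dim probe sets.

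Gene names came from the platform annotation, looked up by Entrez number, and 0 symbols changed. A gene is represented by its probe set with the highest mean. Named genes are the 10 members, the 2 genes of each pathway list with the smallest moderated F p, and the 3 most alike genes for 2 members; Prkaa2 was added after its values were seen. The members and lists were chosen with earlier results of these data known. Promoters came from RefSeq (GRCr8). The fit was tested on simulated data. The alternatives changed the scaling (values as deposited, or array medians centred), the pseudocount (1 or 64), the filter (none, or the 60th percentile), the variance trend (none), the arrays fitted (each left out in turn, or only the compared groups) and the model (a replicate block). A covariate for the 3'/5' ratio and a fit without 2 arrays were chosen after seeing the data. Figures were drawn with matplotlib 3.10.9.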

Additional observations from a re-analysis of the deposited data

How the results depend on the processing

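Over 20 alternative settings, 0 of the 657 member values passed an adjusted p of 0.05, and 617 kept their direction. The other 40, in 15 of 33 member results, changed sign, from log2 changes between -0.13 and 0.12, and in these the cause was not tested. With array medians centred, Ppargc1a 1393743_at had 0.043 at 1 h and Sirt3 0.074 at 6 h. With values as deposited, Nrf1 had -0.089 and Ucp2 -0.041 at 1 h. The next settings were chosen after seeing the data. With the 3'/5' ratio as a covariate, 1 h values were -0.047 for Nrf1 and -9.33e-06 for Slc25a14, and 6 h values were 0.036 for Ppargc1a 1395518_at, -0.033 for Slc25a27 1390401_at and 0.037 for Sirt3. With 7 arrays, leaving out 1 h array 3 and 6 h array 1, 1 h values were -0.043 for Nrf1, -0.079 for Ucp2 and -0.035 for Slc25a14, and 6 h values were -0.053 for Ppargc1a 1393743_at, -0.061 for Slc25a27 1390401_at and 0.066 for Sirt3. Leaving out 1 array at a time, the 1 h values ran from -0.082 to 0.023 for Ppargc1a 1393743_at, from -0.056 to 0.045 for Nrf1, from -0.080 to 0.15 for Ucp2, from -0.098 to 0.087 for Slc25a14 and from -0.078 to 0.0041 for Slc25a27 1390401_at. The 6 h values ran from -0.053 to 0.13 for Ppargc1a 1393743_at, from -0.13 to 0.00996 for Nrf1, from -0.062 to 0.16 for Slc25a27 1390401_at and from -0.060 to 0.066 for Sirt3. The values of 6 h against 1 h ran from -0.031 to 0.15 for Ppargc1a 1393743_at, from -0.079 to 0.18 for 1395518_at, from -0.14 to 0.0049 for Nrf1, from -0.077 to 0.16 for Ucp2 and from -0.025 to 0.20 for Slc25a27 1390401_at.

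Probe sets that passed numbered 6 at 1 h and 5 at 6 h. They were 3 at 1 h and 2 at 6 h with no filter, 0 and 1 with the 3'/5' covariate, 0 and 1 with 7 arrays, and 2 at 6 h with values as deposited. At 6 h there was 1 with array medians centred and 1 with only the compared groups. Leaving out 1 array gave 0 to 10 at 1 h, with 0 without any of the control arrays, 1 h array 1 or 1 h array 3, 3 without 1 h array 2, 10 without 6 h array 1 and 2 without 6 h array 3. At 6 h it gave 1 for each array left out. In 6 h against 1 h, 0 passed by limma, with 507 at an unadjusted p under 0.05, and 0 under every alternative. With the replicate number as a block, 2 passed at 1 h and 1 at 6 h. Same-numbered arrays deviated together (correlation over 0.1) in 3 of 9 pairs, so the numbers were not taken to pair the arrays. The block took Gabpa at 1 h to an unadjusted p of 0.00698 by limma (adjusted p = 0.354), the lowest of the 33 member results. It changed no member's side of the threshold. The number of arrays limits what can be seen.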

Other observations

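Gabpa was lowest on the array numbered 2 in each group, with log2 values of 6.50 in control, 6.28 at 1 h and 6.41 at 6 h, while the other arrays lay between 6.73 and 7.55. The labels do not say that a number marks a shared animal, culture or day. The pattern was noticed after the values were seen, and how many other probe sets share it was not counted.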
